A study of Arabidopsis thaliana with 20 samples.

Results

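Transcript levels of 6 nuclear genes for pentatricopeptide repeat proteins were compared on arrays of Arabidopsis thaliana: CRR21 (AT5G55740), OTP70 (AT4G25270), OTP85 (AT2G02980), AT5G15280, AT2G17670 and AT4G14050. Each was the sole gene of 1 feature, and none of them also stood on a feature shared with other genes, so that 6 of the 3439 features on the array are described here. The genes were selected on their family and on the measured difference between the groups, so the contrast between the groups is given for them as a description, with no test.

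Pentatricopeptide repeat proteins are encoded in the nucleus and carried into plastids and mitochondria. Their tandem helical repeats bind single-stranded RNA, and members of the family are known for editing, splicing, cutting and stabilising the transcripts of both organelles. CRR21 and OTP85 are known plastid editing factors, each needed for C-to-U editing of the plastid ndhD transcript, which encodes a subunit of the chloroplast NDH complex. OTP70 is known for splicing of plastid rpoC1, a transcript of the plastid RNA polymerase, and is therefore a plastid factor without being known as an editing factor. No role is given here for AT5G15280, AT2G17670 and AT4G14050 beyond their family. HCF145, the gene for which the mutant is named, is itself known to be needed for a stable plastid transcript of photosystem I.

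The groups were wild-type plants (WT) and plants labelled hcf145, a mutant whose labels describe a defect in photosystem I assembly, both of the ecotype Wassilevskija. Each group had 10 arrays of total RNA, numbered 1 to 10, and the labels give neither tissue nor age, nor whether arrays came from separate plants. The p-values below thus cover the variation among these arrays alone, and that variation may be technical. The source names of the mutant samples read gun5 in place of hcf145. HCF145 and CHLH, the gene also called GUN5, were each the sole gene of 0 features, so the mutated gene could not be checked, and hcf145 stands below for the arrays with that title. None of the 11 listed marker genes of leaf, phloem, guard cell, trichome, root, flower and seed had a feature of its own.

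Total deposited intensity was 3319 to 3640 per array. How many arrays there were limits the precision of each value given. Neighbouring array numbers (1 with 2, 3 with 4, and so on) resembled each other. For 20 of 20 arrays the neighbour was the closest array of the group, and the consensus correlation of neighbours was 0.66. Neighbours were therefore averaged, which left 5 averages per group. Unless another fit is named, each log2 difference, its standard error (SE) and its fold come from a limma fit to these averages of quantile-normalised log2 values. Intensities and their means are given as deposited, so a fold is not the ratio of such means. In bulk RNA, fewer cells of a type and less RNA per cell cannot be told apart.

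Of the 6 genes, 5 were lower in hcf145 and AT4G14050 was higher. Their median difference was -0.84 on the log2 scale (hcf145 minus WT), against -0.06 over all 3287 features tested. The fit to the averages called 2 of the 6, CRR21 and AT2G17670, both lower, where 7.64% of all features were called and 3.95% were called as lower. Leaving out 1 average at a time, this count ran from 0 to 3, while the share of all features called ran from 1.49% to 7.73%. The fit that counts the 20 arrays separately called 5 as lower and 1 as higher, where 16.2% and 13.1% of all features were called in those directions. Since the genes were selected on this contrast, nothing is read from these counts.

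**Figure D1:**
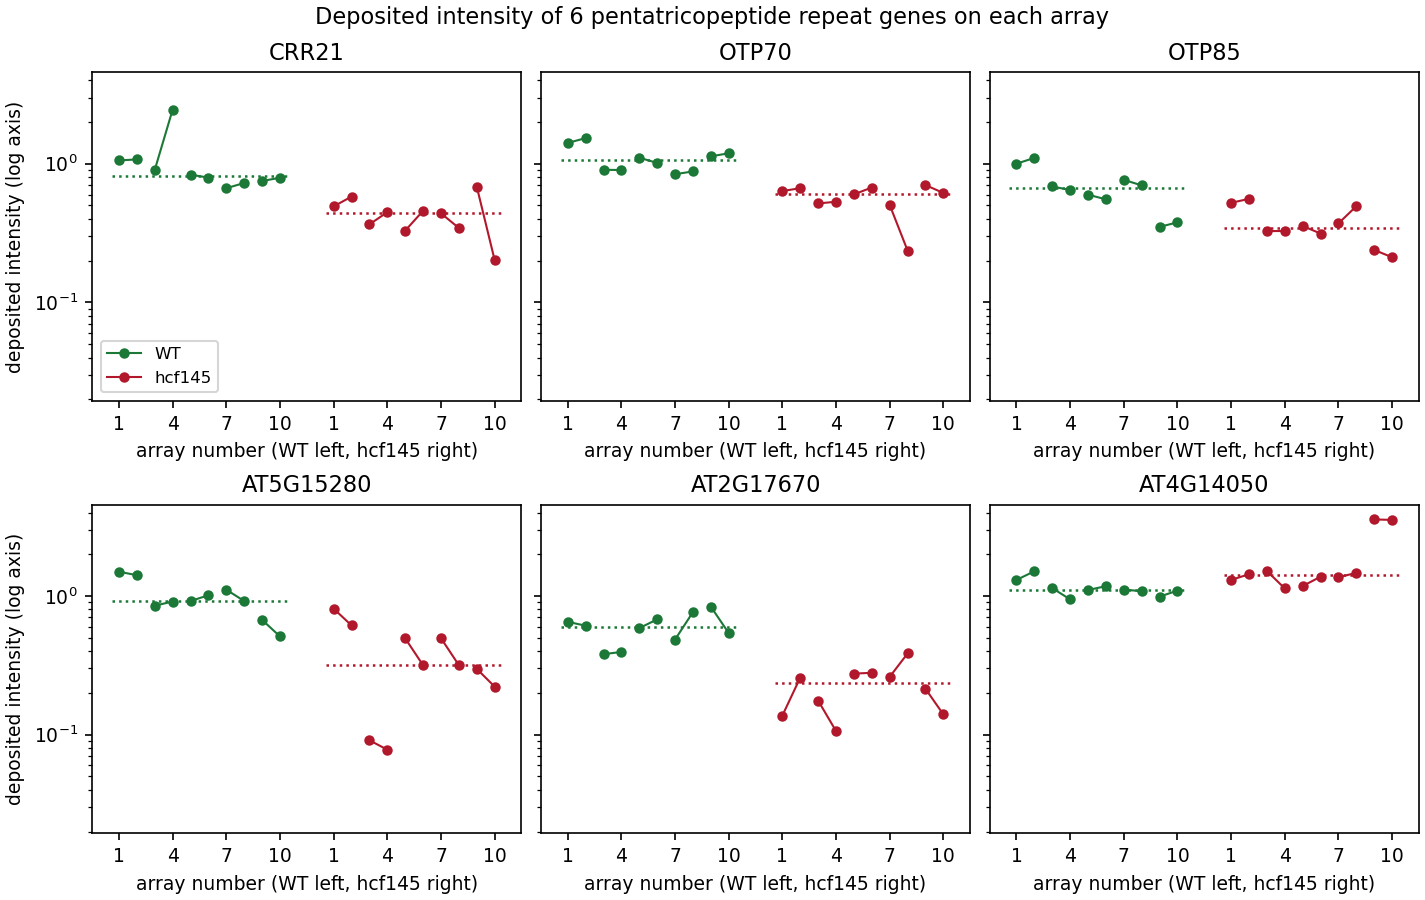
Deposited intensity (log axis) of each gene on every array, against the array number, with WT arrays on the left and hcf145 arrays on the right of each panel. Lines join neighbouring array numbers and dotted lines are group medians; OTP70 is the gene whose groups do not overlap, CRR21 has 1 high WT array (4), and AT4G14050 has 2 high hcf145 arrays (9 and 10).

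CRR21, an editing factor of plastid ndhD, had deposited intensities in WT from 0.666 to 2.46 with a median of 0.814. In hcf145 they ran from 0.202 to 0.685 with a median of 0.443. In hcf145, 9 of 10 arrays lay below the lowest WT array. The deposited mean was 1.01 ± 0.528 in WT and 0.434 ± 0.136 in hcf145 (SD, n = 10 each). The normalised difference was -0.93 ± 0.25 (log2, SE, n = 5 averages each), or 1.90-fold. The highest WT value, 2.46 on array 4, stood beside 0.903 on its neighbour, array 3. On the normalised log2 scale this gap exceeded 95.7% of the gaps between neighbouring arrays over all features. Without the average of WT arrays 3 and 4 the difference was -0.76. In hcf145, arrays 9 and 10 also differed, at 0.685 and 0.202, the highest and the lowest of their group.

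The WT averages of CRR21 were -0.14, 0.46, -0.42, -0.71 and -0.22 on the normalised log2 scale, in the order of the array numbers. Those of hcf145 were -0.82, -1.02, -1.19, -1.34 and -1.30. All hcf145 averages lay below all WT averages. Of the features with all 10 averages, 5.49% had such a gap with hcf145 lower.

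OTP85, the other editing factor of ndhD, ran from 0.350 to 1.10 in WT with a median of 0.666. In hcf145 it ran from 0.212 to 0.558 with a median of 0.341. The groups overlapped, with 5 of 10 hcf145 arrays above the lowest WT array. The deposited mean was 0.678 ± 0.238 in WT and 0.372 ± 0.117 in hcf145 (SD, n = 10 each). The normalised difference was -0.57 ± 0.27 (log2, SE, n = 5 averages each), or 1.49-fold. This was the smallest of the 5 differences toward lower levels in hcf145.

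Within the groups, OTP85 deviated in a similar way at the same array numbers in both, without a steady trend along the numbers. Arrays 1 and 2 were the highest average in each group and arrays 9 and 10 the lowest. In WT the averages deviated from their mean by 0.60, 0.00, -0.28, 0.14 and -0.46 (log2), in the order of the array numbers. In hcf145 the deviations were 0.53, 0.04, -0.08, 0.13 and -0.62. Taken at the same array numbers, the hcf145 average was lower than the WT average at 5 of 5 numbers, by -0.73 to -0.38 (log2), so the difference varied less between numbers than the levels did. Each of the other lower genes was also lower at 5 of 5 numbers, and AT4G14050 was higher at 5 of 5. The genes were selected on this contrast, so nothing is read from that count. Whether the same numbers share a source is not stated in the labels.

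OTP70, the splicing factor of rpoC1, had intensities from 0.840 to 1.53 in WT with a median of 1.06. In hcf145 they ran from 0.236 to 0.702 with a median of 0.609. The groups did not overlap, with all hcf145 arrays under the lowest WT array. Of all features, 2.56% had such a gap in the deposited intensities, and of the 6 genes OTP70 was the only one. The deposited mean was 1.09 ± 0.234 in WT and 0.568 ± 0.135 in hcf145 (SD, n = 10 each). The normalised difference was -0.76 ± 0.26 (log2, SE, n = 5 averages each), or 1.69-fold. The lowest hcf145 value, 0.236 on array 8, stood beside 0.504 on array 7. Without the average of hcf145 arrays 7 and 8 the difference was -0.57.

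The WT averages of OTP70 were 0.37, -0.30, 0.01, -0.35 and 0.27 on the normalised log2 scale. Those of hcf145 were -0.54, -0.67, -0.51, -1.52 and -0.55, so 4 of the 5 lay within a narrow band and the average of arrays 7 and 8 lay apart. OTP70 was not called in the fit to the averages. It was called with neighbouring arrays as a random block (13.1% of all features called) and in the averages of the values as deposited (10.8%).

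AT5G15280 had the largest difference of the 6 genes with all averages, and in hcf145 the widest spread between averages on the log2 scale. Without hcf145 arrays 3 and 4 its difference (-1.02) was smaller than that of AT2G17670 (-1.05). Its intensities ran from 0.511 to 1.50 in WT with a median of 0.920. In hcf145 they ran from 0.0779 to 0.811 with a median of 0.317. In hcf145, 8 of 10 arrays lay below the lowest WT array. The deposited mean was 0.982 ± 0.301 in WT and 0.374 ± 0.231 in hcf145 (SD, n = 10 each). The normalised difference was -1.40 ± 0.42 (log2, SE, n = 5 averages each), or 2.64-fold.

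The lowest values of AT5G15280 were those of hcf145 arrays 3 and 4, at 0.0910 and 0.0779, close to the 10th percentile of all deposited values (0.0653). The highest were those of hcf145 arrays 1 and 2, at 0.811 and 0.613, which lay inside the WT range. The hcf145 averages were -0.43, -3.10, -1.18, -1.33 and -1.79 on the normalised log2 scale, against 0.35, -0.34, -0.14, -0.10 and -0.58 in WT. The difference was -1.69 without hcf145 arrays 1 and 2. Its SD between averages, pooled over the groups, 0.74 (log2), was larger than that of 81.0% of the features with all 10 averages.

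AT2G17670 ran from 0.380 to 0.838 in WT with a median of 0.598. In hcf145 it ran from 0.106 to 0.385 with a median of 0.236. In hcf145, 9 of 10 arrays lay below the lowest WT array, and the array above it, number 8, exceeded it by a small margin (0.385 against 0.380). The deposited mean was 0.593 ± 0.149 in WT and 0.223 ± 0.0850 in hcf145 (SD, n = 10 each). The normalised difference was -1.15 ± 0.27 (log2, SE, n = 5 averages each), or 2.21-fold.

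The averages of AT2G17670 did not overlap between the groups, as in 5.49% of the features with all 10 averages (hcf145 lower). Those of AT2G17670 were -0.90, -1.56, -0.87, -0.90 and -0.41 on the normalised log2 scale in WT and -2.27, -2.46, -1.69, -1.63 and -2.33 in hcf145. Leaving out 1 average at a time moved the difference between -1.30 and -1.02.

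AT4G14050 was the gene with the opposite direction. Its intensities ran from 0.946 to 1.51 in WT with a median of 1.11. In hcf145 they ran from 1.13 to 3.57 with a median of 1.41. In hcf145, 3 of 10 arrays lay above the highest WT array and 7 lay within the WT range. The deposited mean was 1.15 ± 0.161 in WT and 1.79 ± 0.937 in hcf145 (SD, n = 10 each). The normalised difference was 0.64 ± 0.27 (log2, SE, n = 5 averages each), or 1.56-fold.

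A large part of that difference lay in 1 pair of arrays. On hcf145 arrays 9 and 10 AT4G14050 stood at 3.57 and 3.54, and on the other 8 hcf145 arrays it stood between 1.13 and 1.52. On the normalised log2 scale the hcf145 averages were 0.47, 0.53, 0.49, 0.47 and 1.74, and those of WT were 0.29, -0.07, 0.15, 0.02 and 0.12. All hcf145 averages lay above all WT averages, as in 4.76% of the features with all 10 averages. The difference was 0.39 ± 0.17 without the average of hcf145 arrays 9 and 10 and also 0.39 ± 0.17 (log2, SE) without arrays 9 and 10 of both groups. The average of these arrays lay within -0.62 and 0.21 (log2) of the group mean for the other 5 genes.

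The rank of a gene among the features of its own array is kept by any scaling that keeps their order. The median percentile of CRR21 was 75.7 in WT and 58.0 in hcf145, that of OTP85 64.8 and 50.8, and that of OTP70 80.8 and 69.1. AT5G15280 went from the median percentile 76.9 to 43.8 and AT2G17670 from 61.2 to 33.4. AT4G14050 stood at 82.0 in WT and 87.5 in hcf145. All 6 genes were above 0 on all 20 arrays.

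**Figure D2:**
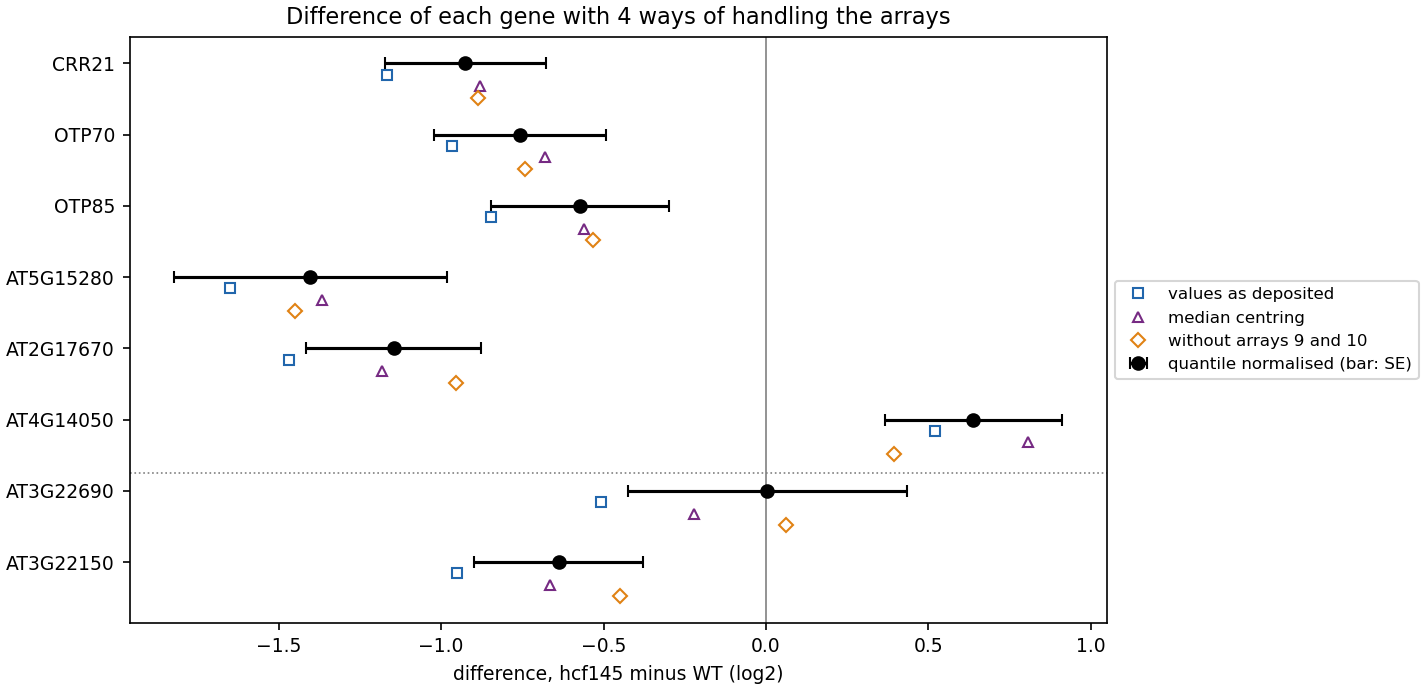
Difference between hcf145 and WT (log2, hcf145 minus WT) of the 6 genes and, under the dotted line, of 2 further pentatricopeptide repeat genes. Black points are the quantile-normalised averages with SE and open symbols the same difference without normalisation, with median centring and without arrays 9 and 10; the 6 genes keep their direction in all 4, and AT3G22690 changes side.

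The direction of all 6 genes was kept under every alternative tried, while the sizes moved with the scaling. Without normalisation the median of all features was -0.32 (log2), against -0.06 after quantile normalisation, and the differences of the 5 lower genes ran from -1.65 for AT5G15280 to -0.85 for OTP85. AT4G14050 was at 0.52 in the values as deposited and at 0.81 with median centring.

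The plastid factors CRR21, OTP70 and OTP85 were set against the other 3 genes. No site of action is given here for those 3, so they are not taken as non-plastid. The 3 plastid factors were all lower in hcf145, by a mean of -0.75 and a median of -0.76 (log2). The other 3 were at a mean of -0.64 and a median of -1.15, so that the mean and the median order the 2 sets differently, because AT4G14050 lay on the other side of 0. Taken within each average, the plastid factors minus the others came to 0.01 ± 0.28 in WT and -0.11 ± 0.49 in hcf145 (log2, SD, n = 5 averages each). The ranges overlapped, from -0.23 to 0.45 in WT and from -0.53 to 0.68 in hcf145. The difference of differences, -0.12 (log2), was smaller than the spread between averages in either group. It was -0.31 without the average of hcf145 arrays 3 and 4 and -0.0034 without that of WT arrays 3 and 4. This split was proposed with the values known and was not tested.

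**Figure D3:**
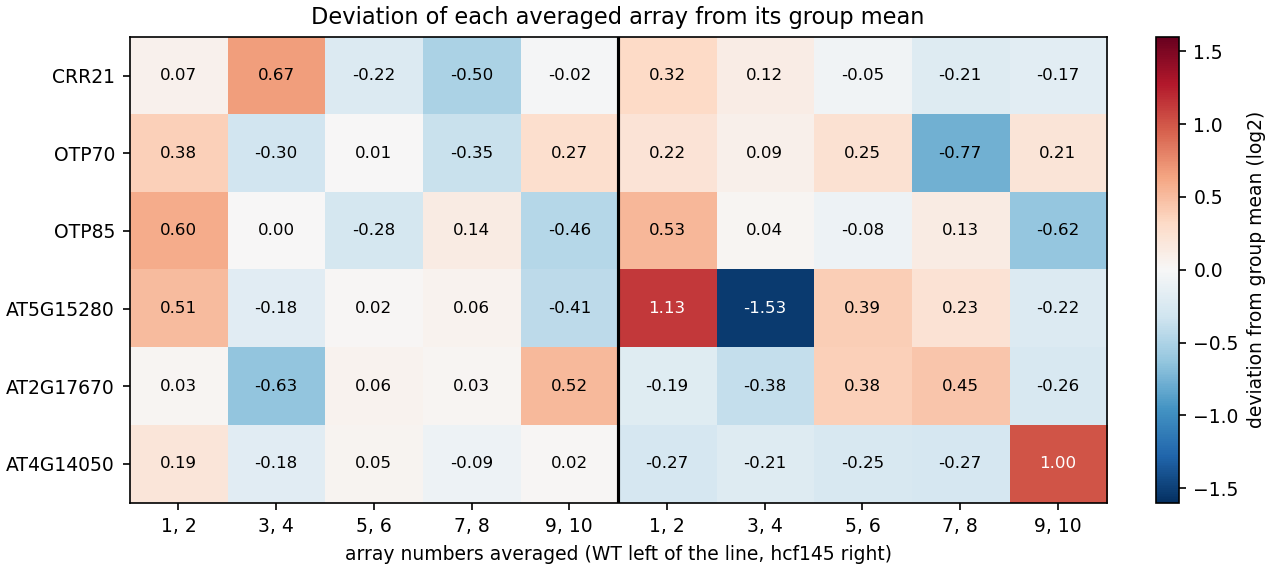
Deviation of each average of neighbouring arrays from its group mean (log2) for the 6 genes, with the WT averages left of the line and the hcf145 averages right of it. Red is above and blue below the group mean; the largest deviations are those of AT5G15280 in hcf145 (arrays 3 and 4 at -1.53, arrays 1 and 2 at 1.13) and, after these, of AT4G14050 on hcf145 arrays 9 and 10.

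Within the groups the 6 genes did not vary as 1 block. Over the 10 averages, the Pearson correlations of their deviations ran from -0.58 (CRR21 with AT2G17670) to 0.49 (OTP85 with AT5G15280) in the 15 pairs of genes, with a median of -0.04 and 7 of 15 above 0. Between all 627 single-gene features with 10 averages the middle 50% of pairs lay between -0.32 and 0.32, and the median was 0.00. These correlations describe averages that share arrays and carry no p-value. The 2 editing factors of ndhD, CRR21 and OTP85, correlated at 0.26.

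For each gene, the 2 single-gene features whose deviations were most like its own were sought among 626 others. OTP70 was closest to PIFI (AT3G15840), a chloroplast protein, at 0.96 and to AT5G62840 at 0.89. OTP85 was closest to PSBW (AT2G30570), a small photosystem II subunit, at 0.94 and to AT3G28460 at 0.92, but in the values as deposited PSBW correlated at 0.65. AT5G15280 was closest to AT2G22050 at 0.96 and AT5G61470 at 0.95, and AT4G14050 to AT4G00870 at 0.95 and AT3G11150 at 0.92. CRR21 was closest to AT4G24750 at 0.86 and AT4G00170 at 0.79, and AT2G17670 to AT5G40140 at 0.84 and AT1G64510 at 0.80. These are the highest of many correlations over 10 averages. The 2 features closest to CRR21 within the groups had differences between them of 1.31 and 0.96 (log2, hcf145 minus WT), on the other side of 0 from CRR21.

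Other genes of plastid RNA were thinly covered. Of 22 listed genes of plastid editing, 2 had a feature of their own and 4 stood on features shared with other genes, which were not named. Both measured genes, AT3G22690 and AT3G22150, were entered in that list as pentatricopeptide repeat editing factors from general knowledge, since the gene table gives them no name. Neither was called in the fit to the averages, and 1 of the 2 had an unadjusted p under 0.05. None of 20 listed genes of plastid splicing, RNA stability and translation and none of 6 plastid RNA nucleases had a feature of its own.

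AT3G22150 ran from 0.367 to 0.704 in WT with a median of 0.526, and from 0.169 to 0.431 in hcf145 with a median of 0.298. Its difference was -0.64 ± 0.26 (log2, SE, n = 5 averages each; limma adjusted p = 0.145). Its unadjusted p in limma was 0.0300. With the 20 arrays counted separately it was called (limma adjusted p = 0.0169), where 29.3% of all features were called. It was also called in the averages of the values as deposited, at -0.95 (limma adjusted p = 0.0434), where 10.8% were called. AT3G22690 was dim, with medians of 0.133 in WT and 0.121 in hcf145. Its difference was 0.00 ± 0.43 (log2, SE, n = 5 averages each; limma adjusted p = 0.996), and it lay at -0.51 in the values as deposited.

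CRR21 and OTP85 act on the transcript of an NDH subunit, and of 19 listed nuclear genes of that complex 2 had a feature of their own. NdhS (AT4G23890), a subunit near the ferredoxin-binding site, was at -0.03 ± 0.24 (log2, SE, n = 5 averages each; limma adjusted p = 0.951). NdhN (AT5G58260), a subunit of the stromal arm, was at -0.26 ± 0.32 (log2, SE, n = 5 averages each; limma adjusted p = 0.631). Its deposited medians were 0.360 in WT and 0.187 in hcf145. In the values as deposited NdhN lay at -0.59 and NdhS at -0.14 (log2), where the median of all features was -0.32. Neither was called, with 0 of 2 at an unadjusted p under 0.05 and 0 of 2 with the 20 arrays counted separately. The difference between them and the editing factors was not tested.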

How the data were processed

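The authors deposited a table of intensities for 3439 features on 20 arrays, linear in scale as judged from the values; the steps by which they quantified and scaled them are not given in the sources used here. Gene names came from the platform annotation (692 with 1 gene, 870 with several, 1877 with none); of the 692, 690 matched the RefSeq gene table, used for names only. Zeros counted as missing, the log2 was taken, 3287 features with at least 5 values in each group were kept, arrays were quantile normalised and neighbouring array numbers were averaged. All features were fitted with limma 3.58.1 in R 4.3.3 (group as the only term, two-sided), with Benjamini-Hochberg adjustment over all features at 0.05. The fit was also run on simulated averages with independent noise and no missing values. That run does not cover deviations shared between the groups at the same array numbers, and its outcome is not used here.

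The members and lists were chosen with earlier results of these data known. Named are the 6 genes, every measured gene of the lists, and per member the 2 features with the most similar deviations. The search for other pentatricopeptide repeat genes covered the symbols and synonyms in the gene table and found none beyond the lists. Genes without such a name there, like AT3G22690 and AT3G22150, could not be found this way. How many further genes of the family had a feature of their own is therefore not known. Alternatives were other scalings, zeros, filters, array structures and left-out arrays. Array numbers were to count as paired across groups only if the deviations at every number correlated above 0.1. On single arrays the correlations ran from 0.09 to 0.44, so the numbers were not paired. On the averages the correlations ran from 0.05 to 0.45. A replicate block for the numbers gave each of the 6 genes a smaller SE, for OTP85 0.16 against 0.27.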

Additional observations from a re-analysis of the deposited data

Results flagged for a closer look

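Single arrays lay far from the other 9 of their group in 3 of the 20 groups of arrays examined (10 genes in 2 genotypes). Chance flags about 5% of groups if arrays are independent, which neighbouring arrays were not. On the normalised log2 scale, CRR21 stood at 1.22 on WT array 4, with the others from -0.78 to -0.13. OTP70 stood at -2.05 on hcf145 array 8, with the others from -1.0003 to -0.44. AT3G22690 stood at -4.10 on WT array 8, with the others from -3.49 to -2.94. Such a check misses 2 arrays that deviate together, as AT4G14050 did on hcf145 arrays 9 and 10.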

How the results depend on the processing

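The differences of the 6 genes kept their direction in all 21 alternatives and moved by less than 1 SD between averages. Leaving out 1 average at a time, they ran from -1.05 to -0.76 for CRR21, -0.85 to -0.57 for OTP70, -0.71 to -0.42 for OTP85, -1.69 to -1.02 for AT5G15280, -1.30 to -1.02 for AT2G17670 and 0.39 to 0.71 for AT4G14050. The plastid factors minus the others ran from -0.31 to -0.0034. The number of the 6 genes called, 2 on the averages, was 1 with median centring and with zeros at the lowest positive value (5.81% and 5.82% of all features called), 6 with the 20 arrays counted separately (29.3%) and 4 with the replicate block (15.5%; CRR21, OTP70, AT5G15280 and AT2G17670). It was 3 with neighbouring arrays as a random block (13.1%; OTP70, AT5G15280 and AT2G17670, without CRR21, whose SE was 0.40 there) and 0 without arrays 9 and 10, where 9.64% of all features (317) were called. It ran from 0 to 3 leaving out 1 average, with 1.49% to 7.73% of all features called. AT2G17670 was no longer called without the average of WT arrays 1 and 2 (-1.14), 5 and 6 (-1.13) or 7 and 8 (-1.14), or of hcf145 arrays 3 and 4 (-1.05). CRR21 stayed called in 1 of these 10 fits, without hcf145 arrays 1 and 2 (-1.01). The number of features called, 251 (48.2% of them higher), was 962 on the 20 arrays, 429 with neighbouring arrays as a random block and 511 with the replicate block, and ran from 49 to 254 leaving out 1 average. Of the calls, 18.3% were higher in the values as deposited and 61.3% with median centring. The replicate block used the array numbers, which the data do not settle as pairs; 8 of 10 averages were closest to the average of the same numbers in the other group. Of the 2 other pentatricopeptide repeat genes found through the lists, 1 was called in the values as deposited and on the 20 arrays. Those fits called 10.8% and 29.3% of all features. AT3G22690 changed sign, to -0.51 in the values as deposited, -0.22 with median centring, -0.039 with no minimum number of values and with all features normalised before the filter (added after the data had been seen), and between -0.23 and 0.41 leaving out 1 average. NdhS changed sign with median centring (0.15), without arrays 9 and 10 (0.12) and leaving out 1 average (-0.11 to 0.16), and NdhN without arrays 9 and 10 (0.011). AT3G22690 has no value with the dimmest 25% of features left out, being among them. The causes were not tested. Features near the lower end of the scale, such as AT3G22690 and AT5G15280 on hcf145 arrays 3 and 4, have less certain log2 values.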
